A study of Mus musculus with 11 samples.

Results

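C3(1)/Tag tumors were compared with normal mammary glands of the same FVB strain. Of the 11 arrays, 5 enter this comparison, 3 from primary mammary tumors and 2 from normal glands. They are the arrays whose labels give strain FVB, and these 3 tumors are the only tumors among the 11 arrays. C3(1)/Tag mice carry the simian virus 40 large T and small t antigens under the C3(1) promoter, the 5′ flanking region of a rat prostate steroid binding protein gene. That promoter is active in ductal cells of the mammary gland, and the T antigens bind and inactivate the tumor suppressors p53 and Rb. The glands are non-transgenic, and the study took them from females late in pregnancy, when epithelium fills the fat pad, whereas the tumor-bearing females are not described as pregnant. Transgene and tumor therefore differ together between the groups, and pregnancy may differ with them. The study describes each tumor as taken from its own mouse. For the glands no source used here says whether an array is 1 animal or a pool, so p-values measure only the spread between these arrays. The 6 other glands, 3 of Balb/C and 3 of FVB129B6 mice, are quoted as a range where the FVB glands alone would leave a member unclear.

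A microRNA (miRNA) is a short RNA that guides silencing complexes to messenger RNAs, chiefly through its seed, bases 2 to 8 from the 5′ end. miRNAs with one seed form a family with largely shared targets. In the mammary gland, the miR-200 family and miR-205 are known from epithelium, the miR-148 family from secretory glands, miR-143 and miR-145 from smooth muscle, myoepithelium and stroma, and miR-451 from red blood cells. The let-7 family accumulates as cells differentiate and restrains growth genes such as Ras and Hmga2. miR-221 and miR-222, which target the cell cycle inhibitor p27, and the miR-17-92 cluster with its paralogs, which Myc activates, are raised in many carcinomas.

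Each array holds 334 mouse miRNAs with 4 spots each. A miRNA is called measured on an array when at least 50% of its spots are flagged by the scanner software as well above background. Measured in this sense were 38, 15 and 64 miRNAs on tumor arrays 1 to 3, and 229 and 209 on FVB gland arrays 1 and 2. The tumor scans set this flag at 13 SDs of the background, and the setting of the gland scans is not given in the sources used here, so the flag may not be equally strict on both sides. The tumor scans were dim. The brightest raw green signal of a miRNA spot was 774, 387 and 1068 on the tumor arrays and 29839.9 and 28348.4 on the FVB arrays, while the dimmest spot flagged as well above background lay at 106, 105 and 104 and at 102 and 93. The spliceosomal RNA U6, read by a 60-base probe to its 3′ end, gave processed green intensities of 30650, 12450 and 24875 in the tumors and 181250 and 231750 in the FVB glands. On the tumor arrays the median miRNA intensity, 170, 140 and 125, lay at that of the negative controls, 163, 136 and 117. On the FVB arrays it was 245.5 and 188.5, against 15.1 and 14.1 for the negative controls. Tumor and gland arrays come from different slides, were extracted with different program versions and differ in scan range, so slide, scan and group cannot be told apart in any result below. No spot was saturated.

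**Figure D1:**
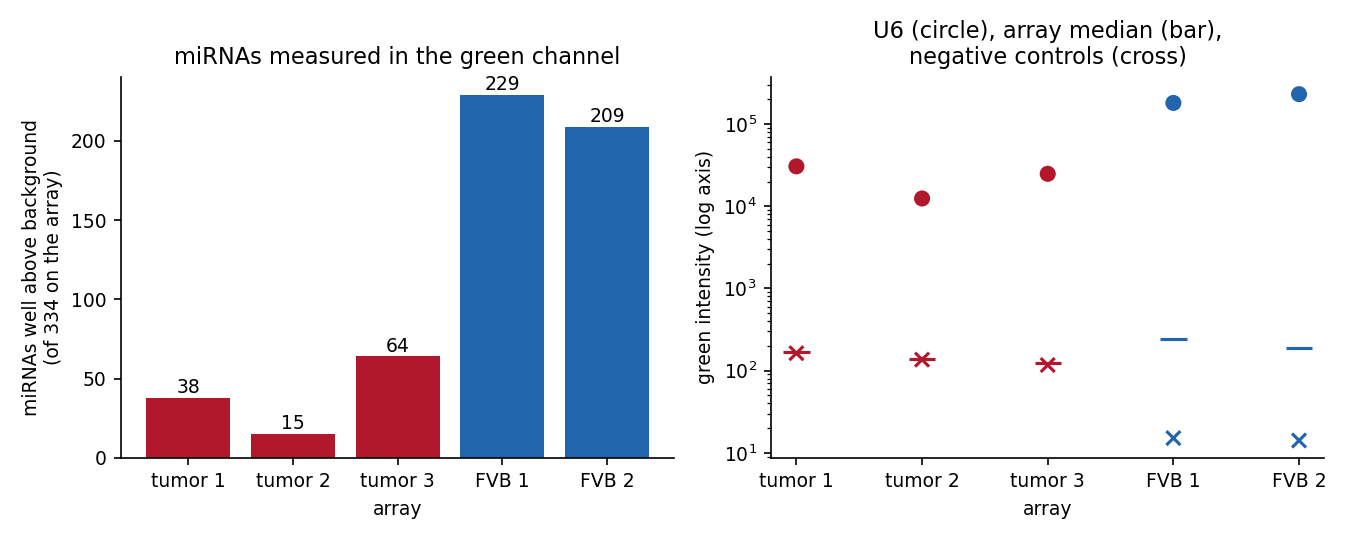
Left, number of miRNAs measured in the green channel (of 334) on each of the 5 arrays, from 15 to 64 on the tumor arrays and 229 and 209 on the FVB arrays. Right, green intensity on a log axis for U6 (circles), the median miRNA spot (bars) and the negative controls (crosses): on the tumor arrays the bar and the cross coincide, on the FVB arrays they lie apart.

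Of the 334 miRNAs, 15 were measured on all 3 tumor arrays, and the same 15 on both FVB arrays. A further 21 were measured on 2 tumor arrays, of which 19 were on both FVB arrays and 2, miR-346 and miR-468, on neither. Another 30 were measured on 1 tumor array, in 28 cases that of tumor 3. Tumor array 2 held no miRNA beyond the 15. The remaining 268 were on no tumor array, and 143 of these were on both FVB arrays. A difference between tumor and gland has a measured value on both sides only for the first sets. For the 143 it is a lower bound.

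The sequences of the miRNAs on which the results turn are given first, from the mature sequences of RefSeq (GRCm38.p6), 5′ to 3′, with the seed in capitals. For 239 of the 334 array miRNAs a mature sequence matched the probe by name, and for 11 of the 15. The first set is the let-7 family, whose members parted from each other in the tumors' green channel although all carry the seed GAGGUAG.
let-7b: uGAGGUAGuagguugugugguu
let-7c: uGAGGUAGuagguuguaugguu
let-7a: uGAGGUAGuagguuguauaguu
let-7e: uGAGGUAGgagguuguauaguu
let-7i: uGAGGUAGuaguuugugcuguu
let-7f: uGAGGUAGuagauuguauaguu
miR-98: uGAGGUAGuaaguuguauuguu
let-7d: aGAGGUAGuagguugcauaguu
let-7g: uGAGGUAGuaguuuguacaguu
They are listed by the number of positions at which they differ from let-7b, which is 1 for let-7c, 2 for let-7a, 3 for let-7e, let-7i, let-7f and miR-98, and 4 for let-7d and let-7g. let-7b and let-7c-2 lie together on chromosome 15 at chr15:85707325-85707346 and chr15:85706616-85706637, both on the plus strand and within 731 bases. let-7a-1, let-7f-1 and let-7d lie on the minus strand of chromosome 13 at chr13:48538239-48538260, chr13:48537889-48537910 and chr13:48536078-48536099, within 2183 bases.

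The second set holds other miRNAs measured on all 5 arrays, with miR-222 as the partner of miR-221.
miR-690: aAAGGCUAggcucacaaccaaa
miR-205: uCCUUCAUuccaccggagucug
miR-25: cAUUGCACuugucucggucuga
miR-92: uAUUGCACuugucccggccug
miR-221: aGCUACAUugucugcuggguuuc
miR-222: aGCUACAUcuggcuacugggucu
miR-674: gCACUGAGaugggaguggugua
miR-762: gGGGCUGGggccgggacagagc
miR-25 and miR-92 (miR-92a in RefSeq) share the seed AUUGCAC, and miR-221 and miR-222 share GCUACAU. miR-690 maps to chr16:28599940-28599961 and miR-205 to chr1:193507503-193507524, both on the minus strand. miR-221 and miR-222 are neighbours on the minus strand of the X chromosome at chrX:19146307-19146329 and chrX:19146901-19146923. miR-674 maps to chr2:117185151-117185172 and miR-762 to chr7:127708534-127708555, on the plus strand.

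The third set was measured on both FVB arrays and on no tumor array, and stands at the top of the lower bounds given below.
miR-451: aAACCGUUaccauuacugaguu
miR-26a: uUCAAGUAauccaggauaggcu
miR-148a: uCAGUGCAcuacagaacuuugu
miR-30a-5p: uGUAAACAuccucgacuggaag
miR-200b: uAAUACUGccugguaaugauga
miR-451 maps to chr11:78073186-78073207 on the plus strand, miR-148a to chr6:51269829-51269850 on the minus strand and miR-200b to chr4:156055685-156055706 on the minus strand.

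A level below is the mean log2 green intensity of a miRNA's spots minus the median over all 1336 miRNA spots of that array, the global median normalization of the methods. A difference is the mean of the 3 tumor levels minus that of the 2 FVB levels, with its standard error (SE) from limma, fitted over the 205 miRNAs measured on both FVB arrays. At an adjusted p under 0.05, 75.6% of the 205 were called. Lower in the tumors were 62.9% and higher 26 (12.7%), and the median difference was -2.12. These shares belong to miRNAs chosen by their FVB arrays. With all 334 tested and no filter, 131 were lower and 157 higher. Of the 15 miRNAs measured on every array, 9 were lower and 2 higher, and 4 did not pass. Tumor and FVB levels did not overlap for 12 of the 15, against 86.3% of all 205.

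miR-690 was at 3.84, 2.75 and 3.77 in tumors 1 to 3 and at 8.48 and 9.62 in the FVB glands, a difference of -5.60 (SE 0.52, adjusted p = 0.000378). miR-145, the smooth muscle and myoepithelial miRNA, was at 2.99, 2.53 and 3.67 in the tumors and at 8.02 and 8.71 in the glands. Its difference was -5.30 (SE 0.43, adjusted p = 0.000232). For both, every tumor lay more than 4 log2 units below every FVB gland. miR-720, a name since reassigned to a fragment of a transfer RNA, was at 3.85, 3.90 and 4.81 against 9.05 and 9.41, a difference of -5.04 (SE 0.38, adjusted p = 0.000195). miR-709 was at 3.04, 2.13 and 4.51 against 6.89 and 7.80, a difference of -4.12 (SE 0.76, adjusted p = 0.00525). The single spots of miR-709 and miR-720 were uneven on the tumor arrays, with SDs of up to 1.88 and 1.65 log2 units over the 4 spots of 1 array, while no member exceeded 0.128 on an FVB array.

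miR-205, which marks basal and other epithelial cells, was at 2.43, 2.73 and 2.74 in the tumors and at 5.42 and 6.46 in the FVB glands. The difference was -3.31 (SE 0.37, adjusted p = 0.000742), and the 6 glands of the other strains lay at 5.43 to 6.50. Its spots on a tumor array had an SD of up to 1.65. let-7a was at 4.73, 4.29 and 5.51 against 8.71 and 8.89, and let-7d at 4.28, 2.73 and 4.87 against 7.41 and 7.49. Their differences were -3.96 (SE 0.41, adjusted p = 0.000572) and -3.49 (SE 0.67, adjusted p = 0.00591). let-7c was at 6.69, 6.42 and 7.15 against 8.86 and 9.04, a difference of -2.20 (SE 0.29, adjusted p = 0.00145). All 3 tumors were below all 8 glands of the 3 strains for 8 of the 15, which are these 3 let-7 members, miR-690, miR-145, miR-720, miR-709 and miR-205.

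let-7b showed the smallest difference among the called miRNAs. It was at 7.08, 6.52 and 7.64 in the tumors and at 8.16 and 8.44 in the glands, a difference of -1.22 (SE 0.39, adjusted p = 0.0335). This call is lost when either FVB array or tumor 1 or 2 is left out, with adjusted p from 0.0507 to 0.138. miR-25 was at 4.27, 2.92 and 5.80 against 5.25 and 5.61, and tumor 3 lay above both glands. miR-92 was at 3.15, 3.19 and 4.41 against 3.89 and 4.31, again with tumor 3 above both. Neither passed the test, at -1.10 (SE 0.86, adjusted p = 0.279) and -0.52 (SE 0.47, adjusted p = 0.343). Both pass without tumor 3, at -1.84 and -0.94 with adjusted p of 0.0276 and 0.0384.

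At the other end stood miR-689, miR-762, miR-674 and miR-221. miR-689 was at 4.81, 3.95 and 5.57 in the tumors and at 1.96 and 2.54 in the FVB glands, a difference of 2.53 (SE 0.53, adjusted p = 0.00833). Without FVB gland 1 the difference was 2.24 and the adjusted p 0.0642. miR-674 was at 3.81, 3.56 and 3.90 against 2.44 and 2.57, a difference of 1.25 (SE 0.23, adjusted p = 0.00481). miR-762 was at 6.21, 5.15 and 7.19 against 4.61 and 4.51, and at 1.63 (SE 0.62, adjusted p = 0.0601) it did not pass. miR-221 was at 4.86, 3.83 and 5.28 against 3.56 and 4.12, so that tumor 2 fell between the glands, and its 0.82 (SE 0.50, adjusted p = 0.184) did not pass either. Without tumor 2, the dimmest array, miR-762 and miR-221 passed at 2.15 and 1.23 with adjusted p of 0.00737 and 0.0262. For miR-689, miR-762 and miR-674 all 3 tumors lay above all 8 glands, and the share of all 205 that does so was not counted either.

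**Figure D2:**
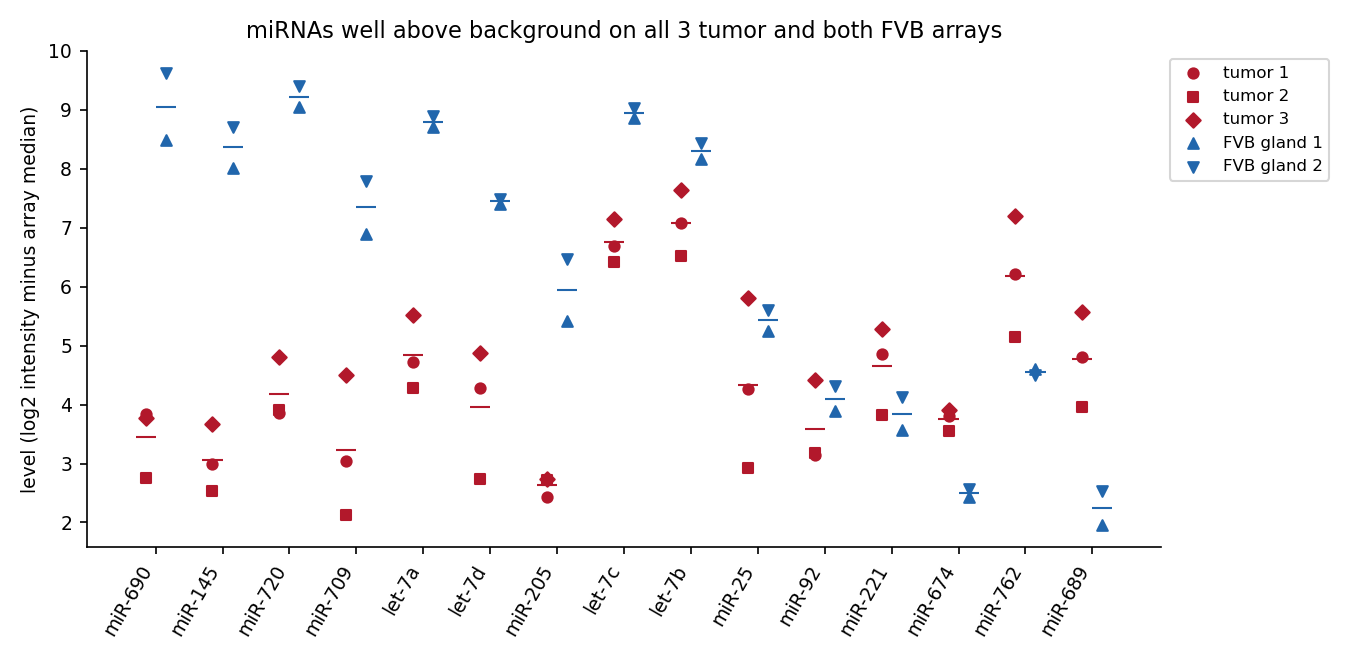
Level (log2 green intensity minus the array's median) of the 15 miRNAs measured on all 5 arrays, ordered by the difference between tumors (red symbols, 1 per array) and FVB glands (blue triangles), with short lines at the group means. Tumors lie below both glands from miR-690 to let-7b, mix with them for miR-25, miR-92 and miR-221, and lie above them for miR-674, miR-762 and miR-689.

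Where zero lies on this scale depends on the constant taken from each array, since the tumor median is a background level and the gland median is not. Scaling to the 75th percentile moves every difference by 3.24 relative to the array median, scaling to the median of the 15 by 2.96, scaling to U6 by 2.71 and no scaling by -0.58. With the array median these are 5 scalings that differ by a constant only, so the order of the miRNAs is the same in all. No scaling here means the processed intensities, which already carry the program's dye normalization. Its green factor was 44.95, 55.66 and 31.75 on tumor arrays 1 to 3 and 5.52 and 5.47 on FVB arrays 1 and 2. Intensities without this factor were not tested, so a sign or call kept under all 5 scalings holds for dye-normalized intensities only. Of the 205, 65 were lower (31.7%) and 84 higher (41.0%) when scaled to U6, 72.7% in all, and of the 15, 4 were lower and 7 higher. Called lower under all 5 scalings were 58 miRNAs (28.3%) and called higher 9 (4.39%). Of these, 42 of the 58 and 5 of the 9 were on no tumor array. Among the 15, miR-690, miR-145 and miR-720 were called lower under all 5 and miR-689 was called higher under all 5. Differences of 7 members were below 0 under all 5 scalings, namely miR-690, miR-145, miR-720, miR-709, let-7a, let-7d and miR-205. Those of 4 were above 0, namely miR-221, miR-674, miR-762 and miR-689. let-7c, let-7b, miR-25 and miR-92 lay below 0 on the array median and at 0.51, 1.48, 1.61 and 2.19 when scaled to U6. Settings that do more than add a constant turned other members. With normexp background correction miR-221, miR-674 and miR-762 stood at -1.25, -0.46 and -0.79, and miR-689 was no longer called, at 0.35 (adjusted p = 0.451). With quantile normalization let-7d and miR-205 stood at 0.83 and 0.62, and miR-145 was not called (adjusted p = 0.0602). As a ratio of green to red miR-690 and miR-709 stood at 3.05 and 1.74.

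**Figure D3:**
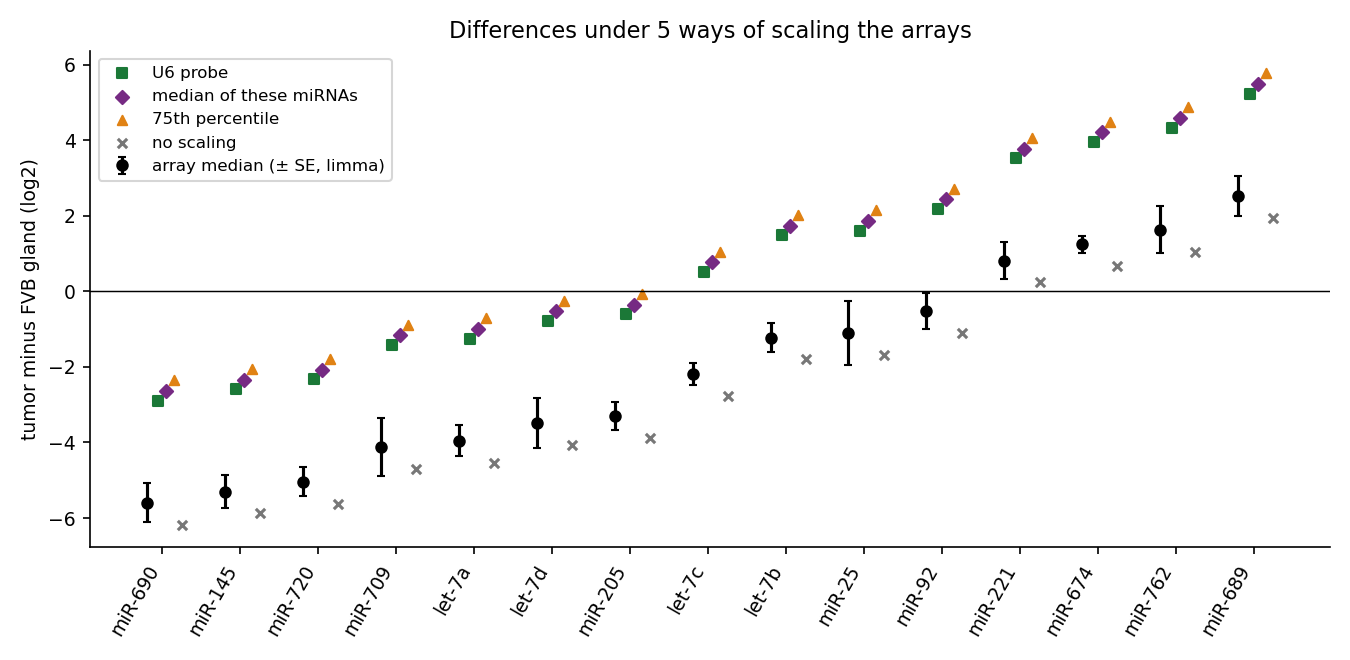
Difference between tumors and FVB glands (log2) of the same 15 miRNAs under 5 scalings of the arrays, with limma's SE for the array median. Each other scaling moves all 15 by one constant, and 7 miRNAs stay below 0 and 4 above 0 under all 5. All 5 start from dye-normalized intensities.

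Differences between miRNAs of the same array do not depend on that constant, although they do depend on the background correction and on the use of the red channel. Since each probe has its own brightness, only the change of such a difference between the groups is read. Between miR-690 and miR-689 the level difference was -0.97, -1.20 and -1.80 in the tumors and 6.52 and 7.08 in the FVB glands, a change of -8.13 log2 units between the groups. As a ratio of green to red this change was -0.10. Between miR-145 and miR-205 it was 0.55, -0.19 and 0.93 against 2.59 and 2.24, a change of -1.99, and of -1.37 as a ratio of green to red. The groups did not overlap in green intensity. Between miR-221 and miR-222, neighbours in the genome with one seed, the difference was 1.20, 1.30 and 0.79 in the tumors and 1.22 and 1.07 in the glands, and the groups overlapped. miR-222 was not measured on tumor array 2, so the 1.30 there rests on an unmeasured level. Between miR-25 and miR-92, also of one seed, the difference was 1.12, -0.27 and 1.39 against 1.36 and 1.30, overlapping as well. These are descriptions of pairs, with no test.

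In green intensity the let-7 family split in this way. Relative to let-7b on the same array, let-7a was at -2.35, -2.23 and -2.13 in the tumors and at 0.55 and 0.45 in the FVB glands, a change of -2.73 in green intensity. let-7d was at -2.79, -3.79 and -2.77 against -0.75 and -0.95, a change of -2.27. let-7c, 1 base from let-7b, was at -0.38, -0.10 and -0.49 against 0.70 and 0.59, a change of -0.97. For all 3 the groups did not overlap in green intensity. As a ratio of green to red the direction turned for all 3, to 0.45 for let-7a, 1.06 for let-7d and 1.25 for let-7c relative to let-7b, so the split holds for the green channel alone. The SDs were 0.11 and 0.07 in tumors and glands for let-7a, 0.58 and 0.14 for let-7d and 0.20 and 0.08 for let-7c. let-7i and let-7e, measured on tumor arrays 1 and 3 only, changed by -2.08 and -1.31 on those arrays, and as a ratio of green to red, over all 3 tumors, by 0.33 and 0.78. With normexp let-7e changed by 0.21. let-7f, let-7g and miR-98 were on no tumor array and were called lower than in the FVB glands, at least 83.2-, 43.3- and 3.39-fold on the array median and at least 12.7- and 6.64-fold for the first 2 when scaled to U6. let-7f shares its chromosome 13 cluster with let-7a and let-7d. Over the whole family, all 9 members were called lower on the array median, with a median difference of -3.49, and 2 were lower and 1 higher when scaled to U6. Of all 205, 62.9% were lower on the array median, and 31.7% lower and 41.0% higher when scaled to U6. The mature sequences of let-7b and let-7c hold 10 and 9 G or C bases, those of let-7a and let-7g 8 and of let-7f and miR-98 7, while let-7d, let-7e and let-7i hold 9. let-7 probes lie only 1 or 2 base edits from the nearest other let-7 probe, so members can share signal, and how far this moved the levels was not tested.

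**Figure D4:**
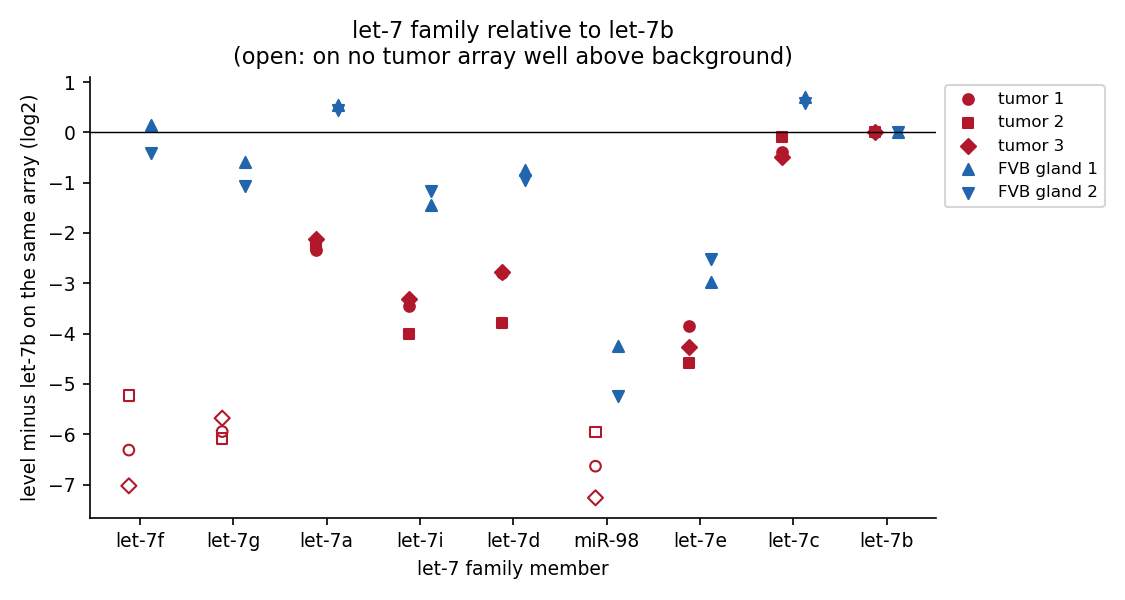
Level of each let-7 family member minus that of let-7b on the same array (log2), for 3 tumors (red) and 2 FVB glands (blue), with open symbols for members measured on no tumor array. Every tumor lies below both FVB glands for each member other than let-7b itself, and the gap is narrowest for let-7c.

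For the 21 miRNAs measured on 2 tumor arrays, the array without the miRNA was that of tumor 2. Of the 19 in the fit, 11 were lower, 3 higher and 5 did not pass, shares near the 62.9% and 12.7% of all 205. miR-24 has a copy beside miR-27a and miR-23a on chromosome 8 and another, with an identical mature sequence, on chromosome 13. miR-24, miR-27a and miR-23a, which shape angiogenesis and lipid metabolism, were at 2.39 and 3.08, 2.32 and 2.50, and 4.14 and 4.80 in tumors 1 and 3. In the FVB glands they were at 7.95 and 8.00, 7.06 and 6.74, and 7.99 and 7.71. Without tumor 2 their differences were -5.25, -4.49 and -3.38, with adjusted p of 0.000212, 0.000212 and 0.000889, in a fit that called 59.9% of 207 miRNAs lower and 15.5% higher (75.4% in all). miR-24 and miR-27a were also called lower when scaled to U6, at -2.90 and -2.30, while miR-23a at -1.19 was not. With quantile normalization miR-27a was not called (adjusted p = 0.156). miR-103 and miR-107, which differ in 1 base of their probes and are known for insulin signalling and Dicer control, had differences of -3.82 and -4.29 without tumor 2. miR-125a, which targets Erbb2, miR-93 of the miR-17-92 paralogs, and miR-210, the hypoxia miRNA, were lower on the array median at -2.99, -2.17 and -1.45. Without tumor 2 they were at -2.25, -1.75 and -1.24. Without FVB gland 2 they were at -2.74, -1.94 and -1.06, and the calls were lost. Scaled to U6 these 3 did not pass, at -0.28, 0.54 and 1.25. miR-31, miR-34a and miR-320 did not pass, at -1.68, -1.27 and -0.85, although miR-34a and miR-320 were called higher when scaled to U6, at 1.44 and 1.86.

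On the higher side of these, miR-669b was at 2.79 and 2.42 in tumors 1 and 3 and at -2.63 and -2.26 in the FVB glands, and at 0.70 in tumor 2, where it was not measured. miR-672 was at 3.18 and 3.58 against -1.17 and -0.61, and miR-669c at 2.90 and 3.80 against -0.52 and 0.20. Over all 3 tumors their differences were 4.42 (SE 0.68, adjusted p = 0.0025), 3.52 (SE 0.80, adjusted p = 0.0113) and 3.05 (SE 0.59, adjusted p = 0.00628), and all 3 were called higher under the 5 scalings. With normexp the differences were 0.73, 0.78 and 0.53, and as a ratio of green to red miR-669b and miR-669c were not called, at 0.54 and 0.70. The call of miR-672 is lost without either FVB array (adjusted p of 0.0802 and 0.0531) and that of miR-669c without FVB gland 1 (0.0548). The miR-669 family comes from a cluster of repeated copies, and the probes of miR-669a and miR-669b lie 2 base edits apart. miR-669a was at 3.05 and 2.60 against 0.27 and 0.77 and was called without tumor 2 (2.30, adjusted p = 0.0029). miR-222 was at 3.67 and 4.49 against 2.34 and 3.05, and was called without tumor 2 as well (1.38, adjusted p = 0.0386). miR-346 and miR-468 were on tumor arrays 1 and 3 and on neither FVB array. With FVB levels raised to that of the dimmest measured miRNA, they were 23.6- and 29.0-fold higher in the tumors. These folds include tumor 2, where neither was measured, at 0.28 and 0.43, so they are no strict lower bounds. Both were measured on all 6 glands of the other strains, at -3.73 to 0.50 and -2.36 to 0.79. With a normexp background correction in place of the processed signal, the folds were 1.84 and 1.87.

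Most of the gland's repertoire was not measured in the tumors. Of the 143 miRNAs on both FVB arrays and on no tumor array, 90 were called lower, 19 higher and 34 not. These shares are near the 62.9% lower and 12.7% higher of all 205, so they are not particular to this set. A called difference here sets the gland level against tumor background, so it is given as a lower bound. For this, a tumor level below that of the dimmest measured miRNA on the same array was raised to it. The bound was over 2-fold for 57 of the 143 and over 10-fold for 28, and under 1 for 70, for which no fold is given. When scaled to U6, 24 kept a bound over 2-fold. For 14 it was over 2-fold under every constant scaling and with quantile normalization.

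miR-451, made in red blood cells, led with FVB levels of 9.50 and 9.57 against -0.14, 0.34 and 0.13 on the tumor arrays, at least 214-fold lower in the tumors on the array median and 32.7-fold scaled to U6. miR-143, from the same primary transcript as miR-145, was at 8.81 and 9.42 in the FVB glands and at -0.12 to 0.26 in the tumors, at least 160-fold lower. miR-146b, induced by NF-kappaB, was at 7.96 and 9.41, at least 119-fold lower. For these 3 the bounds stayed at 7.96-fold or more under every scaling, background correction and ratio tried. miR-26a, a restrainer of the cell cycle, had FVB levels of 8.25 and 8.29 and a bound of 88.9-fold, and miR-22, which targets the estrogen receptor, 8.37 and 8.00 and a bound of 83.7-fold. Scaled to U6 the bounds of miR-26a and miR-22 were 13.6- and 12.8-fold, and as a ratio of green to red 2.52- and 2.92-fold. Bounds for miR-30c, miR-148a, miR-30a-5p and miR-200b were 79.5-, 74.9-, 57.3- and 48.6-fold on the array median and 12.2-, 11.5-, 8.78- and 7.44-fold scaled to U6. As a ratio of green to red, the bounds of miR-30c and miR-30a-5p were 1.92 and 1.47. All 10 of the highest bounds belong to miRNAs whose tumor levels were at most 1.29, close to the negative controls.

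**Figure D5:**
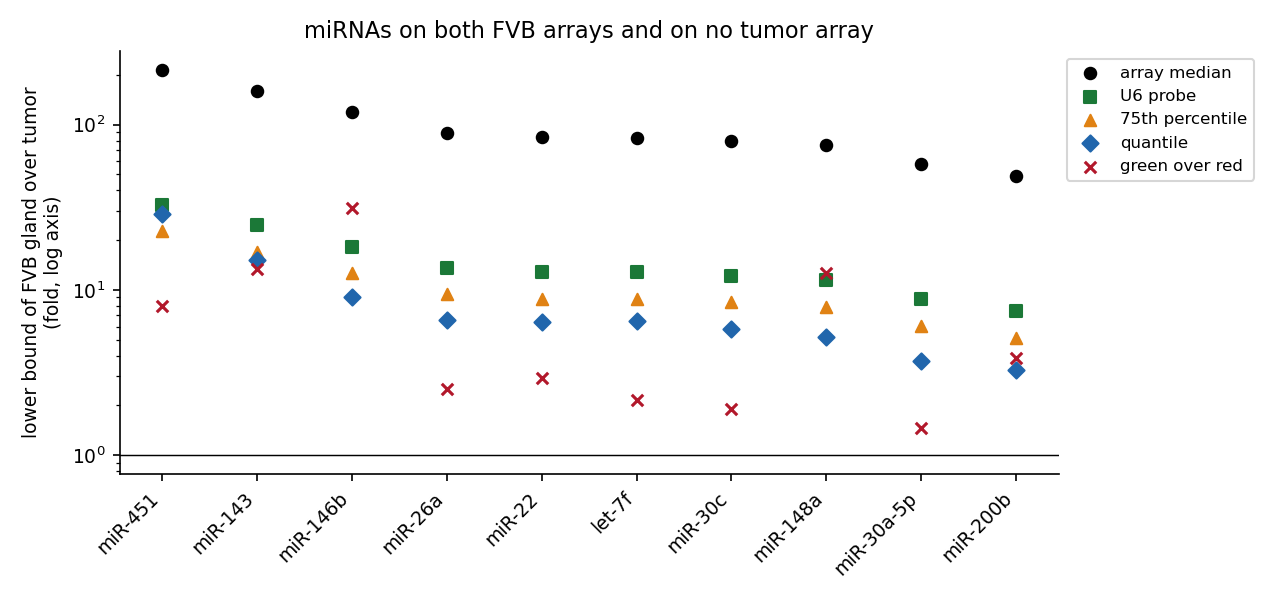
Lower bound of the fold by which FVB glands exceeded tumors (log axis) for the 10 miRNAs with the highest bounds among those measured on both FVB arrays and on no tumor array, under 5 settings. miR-451, miR-143 and miR-146b lie at 7.96-fold or more under every setting shown, while miR-30a-5p falls to 1.47-fold as a ratio of green to red.

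Grouped by role, the epithelial miRNAs were lower on the array median. All 5 members of the miR-200 family, which maintains E-cadherin by repressing Zeb1 and Zeb2, were lower, against 62.9% of all 205, with a median difference of -5.45 (-4.54 with unmeasured members at their bound) against -2.12 (-0.99) for all. All 5 were also called lower under each of the 5 scalings, against 28.3% of the 205. With quantile normalization miR-200a, miR-429 and miR-200c were not called (adjusted p of 0.766, 0.373 and 0.0677), and as a ratio of green to red miR-200a and miR-429 were not, at -0.02 and -0.77. miR-200a, measured on 2 tumor arrays, was at 2.67, 2.67 and 2.72 in the tumors and at 6.70 and 7.76 in the FVB glands, a difference of -4.54 (SE 0.36, adjusted p = 0.000222). miR-200c and miR-429 were measured on tumor array 3 only, at 2.28 and 1.93 against means of 6.59 and 5.67, and miR-141 on none, with a bound of 20.6-fold (3.16-fold scaled to U6). The pregnant gland is rich in epithelium, and fewer cells of a type cannot be told apart from less of a miRNA per cell in such bulk RNA. miR-203, miR-205 and the miR-183 cluster, of keratinizing and sensory epithelia, were lower in 5 of 5 on the array median, 3 of them under all 5 scalings. Scaled to U6, 3 were lower, miR-205 was not called and miR-183 was higher, at 1.40 (adjusted p = 0.0358), although it was on no tumor array, and no bound could be given for it. miR-182 had a bound of 14.0-fold on the array median and 2.14-fold scaled to U6. miR-203 had a bound of 5.29-fold on the array median and none scaled to U6. miR-96 was on tumor array 3 alone, at 1.23 against FVB levels of 4.80 and 5.25.

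The miR-148 family was on no tumor array. miR-148a and miR-152 were called lower under all 5 scalings. miR-152 had a bound of 9.01-fold (1.38-fold scaled to U6). Scaled to the 75th percentile its bound was 0.95, so no fold can be given there. miR-148b was called on the array median (-2.71) and not scaled to U6. All 5 miR-30 and both miR-26 miRNAs were on no tumor array and were called lower under all 5 scalings. Medians at their bounds were -5.40 for the miR-30 and -5.31 for the miR-26 family. For miR-30e the bound was 7.48-fold on the array median and 1.15-fold scaled to U6. It was 0.79 scaled to the 75th percentile and 0.96 scaled to the median of miRNAs measured on all 5 arrays. Under those scalings no fold can be given for miR-30e, whose tumor levels are background. miR-30b and miR-30d had bounds of 42.3- and 39.4-fold, and miR-26b of 17.8-fold (6.47-, 6.04- and 2.72-fold scaled to U6). With green over red none of the miR-30 family was called, at -0.94 to -0.55. Of the miR-15/16 family, which targets Bcl2 and cyclins, 4 of 4 were lower and 3 under all 5 scalings. The counts in this paragraph stand beside 62.9% of all 205 lower on the array median and 28.3% under all 5 scalings. miR-16 was on tumor array 3 at 1.80, against 7.75 and 7.53 in the FVB glands, and as a ratio of green to red its difference was 0.42.

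miRNAs often raised in carcinomas did not move as a group, and the direction of several hung on the scaling. Of the miR-17-92 list, 9 of 11 were lower and none higher on the array median, with a median of -3.86 (-2.55 with unmeasured members at their bound), and scaled to U6 5 were lower and 3 higher. Every count in this paragraph is read against all 205, of which 62.9% were lower and 12.7% higher on the array median. Scaled to U6, 31.7% of the 205 were lower and 41.0% higher. miR-19b, the member held to be most oncogenic, was on tumor array 3 only at 1.94 and at 7.39 and 7.93 in the FVB glands. It was called lower under all 5 scalings, with background levels standing for tumors 1 and 2, and as a ratio of green to red its difference was 0.30. miR-25, miR-92 and miR-93 were the members measured on 2 or more tumor arrays. Scaled to U6, the 3 called higher were miR-25, miR-92 and miR-20b, the last of which was on no tumor array. Of miR-21, miR-155, miR-210, miR-221 and miR-222, 2 were lower and none higher on the array median, and 1 lower and 3 higher scaled to U6. miR-21, which targets Pdcd4, was at 0.55, -0.02 and 1.43 in the tumors and at 6.04 and 5.88 in the glands. It was measured on tumor array 3 only and was called lower under all 5 scalings. As a ratio of green to red it stood at 0.26. miR-155 was on no tumor array, and its FVB levels of 1.00 and -0.46 lie below what the tumor arrays could measure. Of the p53-induced miR-34 family, miR-34a was at 3.11, 2.37 and 3.64 against 3.85 and 4.78, a difference of -1.27 (SE 0.49, adjusted p = 0.0637). Scaled to U6 it was higher, at 1.44 (adjusted p = 0.0317). miR-34b and miR-34c were on no tumor array, with bounds under 1.

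Counts for markers of other cell types in the gland differed from list to list. All 9 stromal and smooth muscle miRNAs were lower, 5 under all 5 scalings, with a median of -4.92 (-4.29 with unmeasured members at their bound), and miR-29a was on tumor array 3 at 2.01 against 7.24 and 6.50. The 3 erythroid miRNAs were lower and on no tumor array, and only miR-451 was lower under all 5 scalings. miR-486 had a bound of 4.65-fold on the array median and none scaled to U6. Of 8 lymphoid and myeloid miRNAs 6 were lower, 3 under all 5 scalings, beside 62.9% and 28.3% of all 205, against which every count in this paragraph is read. miR-150 of mature lymphocytes was on tumor array 1 only, at 3.15 against 1.23 and 0.00 in the other tumors and 4.86 and 3.41 in the FVB glands, and was not called (adjusted p = 0.0603). miR-223 of myeloid cells was on tumor array 3 at 1.92 and at 4.31 and 4.43 in the glands. Of 3 skeletal muscle miRNAs 1 was lower, and miR-133b ranged from 0.01 to 4.47 over the tumors. The endothelial marker on the array, miR-126-5p, was on 1 FVB and no tumor array. Of 7 embryonic stem cell miRNAs none was on any of the 5 arrays, and of 7 neuronal ones none was on a tumor array, with 2 of the 3 tested lower. The part of cell mixture in the differences was not tested.

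Of the miRNAs the study names, miR-10b was on no tumor array, with a bound of 9.51-fold lower in the tumors on the array median, 1.46-fold scaled to U6 and none with quantile normalization. miR-199a was on tumor array 3 only, with tumor levels of 1.55, 1.10 and 2.64 against 5.58 and 6.21. It was called lower on the array median and not when scaled to the 75th percentile (-0.89, adjusted p = 0.0984). miR-412 was on none of the 5 arrays. The lists the study drew up for luminal and basal mouse tumors were made on tumors that include this model, so they are no independent evidence of direction. Of the 73 luminal miRNAs, all tested, 70 were lower and none higher on the array median, where 62.9% of all tested were lower, and 50 were lower under all 5 scalings (28.3% of all tested). Of the 73, 54 were measured on no tumor array. Of the 122 basal miRNAs 24 were tested, 8 were higher and none lower, with a median of 0.81, where 12.7% of all tested were higher, and 2 were higher under all 5 scalings (4.39% of all tested). Of these 122, 117 were measured on no tumor array, so that their levels in the tumors are background.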

How the data were processed

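Total RNA was labelled and hybridized by the authors to a custom 2-colour miRNA array. For each array the authors deposited green and red intensity values of the Feature Extraction program, after the program's own background subtraction and dye normalization, together with flags per spot. The study names the dyes as Hy3 and/or Hy5 and used the green signal, so green is read here as the channel of the sample. A second, deposited table gives log2 values of 1336 miRNA spots and equals the log2 green intensity minus 1 constant per array. Program versions were 9.5.1.1 (tumors) and 10.5.1.1 (glands).

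Green intensities were log2 transformed, centred on the median of each array's 1336 miRNA spots, and outlier spots were left out. miRNAs measured on both FVB arrays or on all 3 tumor arrays entered limma (lmFit and eBayes, Benjamini-Hochberg over 205). The number of arrays limits the precision. Named were all miRNAs measured on all 3 tumor arrays, the 10 highest bounds among called miRNAs, and members of fixed lists where called or measured in a tumor. Those measured on 2 tumor arrays were added after their values were seen. Members, lists and tests were chosen with earlier results of these data known. Alternatives were other scalings and background corrections, filters and detection rules, each array left out, all 11 arrays in the fit and the methods' t-test. U6 scaling was added after seeing the data. Normexp used an offset of 50. On simulated data with 50 of 205 miRNAs changed, 32%, 82% and 100% of changes of 1, 2 and 4 log2 units were found, with 2, 4 and 3 false calls. The simulated arrays had independent noise, as many rises as falls, no background floor and no shift between the groups. The tumor arrays here differ in these points, so the shares do not give the power or false calls of this comparison. The replicate numbers do not pair arrays, since no label says that tumor and gland of 1 number share an animal, batch or day. Software was R 4.3.3, limma 3.58.1, Python 3.11.15, numpy 2.4.6, pandas 2.3.3 and matplotlib 3.10.9.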

Additional observations from a re-analysis of the deposited data

Results flagged for a closer look

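The red channel was not used in the comparison. It held at least 285 miRNAs well above background on an FVB gland array and at most 61 on a tumor array, a signal in data outside the green measurement. Per array the red counts were 61, 47 and 48 for tumors 1 to 3 and 290 and 285 for FVB glands 1 and 2. No cause is given, and what the red channel carries is not settled by the sources used here.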

How the results depend on the processing

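Scaling, the filter and the detection rule decided most of what changed. On the array median 155 of 205 miRNAs were called, and quantile normalization called 93 and green over red 91. The split of calls moved with scaling from 16.8% higher to 64.4% (75th percentile), 60.8% (median of the 15), 56.4% (U6), 45.1% (green over red), 38.3% (values set to a floor) and 5.96% (no scaling). Testing all 334 without a filter called 288, a minimum of 3 arrays left 47 of 62 and all 5 arrays 10 of 15, where fewer miRNAs are tested. Without a filter 54.5% of the calls were higher, and with looser detection rules 30.3% and 39.4%. The methods' t-test called 48 at an unadjusted p under 0.001 and 136 after adjustment, and fits without 1 array 135 to 159. Among the 15, 11 were called, 6 with green over red, 6 of 7 when every spot had to be well above background, 57 of 71 and 44 of 55 with looser detection rules, which admit other miRNAs, and 0 with the methods' t-test at an unadjusted p under 0.001 (10 after adjustment). Fits without 1 array called 9 to 30 of them, the 30 being of 36 miRNAs without tumor 2, a fit in which 75.4% of all 207 were called. With the replicate number as a block, 136 of 205 and 11 of 15 were called, but the numbers do not pair the arrays (correlation of deviations 0.13 for replicate 1 and -0.23 for replicate 2).

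Of 66 named miRNAs, each under 14 alternatives other than leaving out an array, 751 values kept direction and call, 69 lost the call, 35 gained one and 69 changed sign. Without 1 array 308 kept both, 14 lost the call, 8 gained one and none changed sign. Signs changed as follows, as tumor minus FVB gland (log2). With the 75th percentile they changed for let-7c (1.04), let-7b (2.02), miR-25 (2.14), miR-92 (2.72), miR-125a (0.25), let-7e (0.52), miR-93 (1.07), miR-31 (1.56), miR-210 (1.79), miR-34a (1.97), miR-320 (2.39), miR-148b (0.53), miR-98 (0.15) and miR-150 (0.57). With the median of the 15 they changed for let-7c (0.76), let-7b (1.74), miR-25 (1.86), miR-92 (2.44), let-7e (0.24), miR-93 (0.79), miR-31 (1.28), miR-210 (1.51), miR-34a (1.69), miR-320 (2.11), miR-148b (0.25) and miR-150 (0.29). With U6 they changed for let-7c (0.51), let-7b (1.48), miR-25 (1.61), miR-92 (2.19), miR-93 (0.54), miR-31 (1.03), miR-210 (1.25), miR-34a (1.44), miR-320 (1.86) and miR-150 (0.033). With quantile normalization they changed for let-7d (0.83), miR-205 (0.62), let-7c (0.88), let-7b (2.22), miR-25 (2.79), miR-92 (3.06), miR-107 (0.18), miR-23a (0.39), let-7i (0.85), miR-125a (0.99), let-7e (1.13), miR-93 (1.87), miR-31 (0.68), miR-210 (2.04), miR-34a (2.42), miR-320 (1.86) and miR-150 (0.36). With green over red they changed for miR-690 (3.05), miR-709 (1.74), let-7d (0.42), let-7c (0.61), miR-25 (1.69), miR-221 (-0.53), miR-222 (-0.95), let-7e (0.14), miR-93 (0.47), miR-16 (0.42), miR-19b (0.30) and miR-21 (0.26). With normexp they changed for miR-221 (-1.25), miR-674 (-0.46), miR-762 (-0.79) and miR-222 (-0.71). Beyond the constant added by the first 3 scalings, the cause was not tested. Of 16 list medians, 10 stayed below 0 under every setting, and the let-7, miR-15/16, miR-34, carcinoma, skeletal muscle and neuronal lists did not. On the tumor arrays few miRNAs stood above background, which limits every statement on them.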
